A study of Mus musculus with 13 samples.

Results

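Neutrophils are short-lived granulocytes that enter damaged tissue within hours of an injury. Granulocyte colony-stimulating factor, encoded by Csf3, drives their production and release through its receptor Csf3r, and the chemokine receptor Cxcr2 draws mature cells toward the chemokines Cxcl1, Cxcl2, Cxcl3, Cxcl5 and Ppbp. Their granules are filled in order during maturation in the bone marrow: Mpo and Elane are made first, for the primary granules, then Ngp, Camp and Ltf for the secondary granules, while S100a8, S100a9, Retnlg and Cxcr2 belong to the later stages. Some of these genes are also used outside neutrophils, for example Ltf and S100a8 in epithelia.

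Transcripts of these 10 genes (S100a8, S100a9, Csf3r, Cxcr2, Retnlg, Ngp, Camp, Mpo, Elane and Ltf) were followed in bulk RNA-seq of CD45- cells from the mouse thymus. The genes were matched by symbol, and all 10 were found among the 53379 genes of the count matrix. The thymi came from wild type C57BL/6 mice, 2 months old, that were at steady state (PBS, 4 libraries) or at day 1, day 4 or day 7 after sublethal total body irradiation (TBI, 3 libraries each). Hematopoietic cells carrying CD45 were removed before sequencing by depletion and sorting, and neutrophils carry CD45, so any neutrophil RNA in these libraries comes from what passed the sort. In bulk libraries, fewer cells of a type and less RNA per cell cannot be told apart. It is not stated here whether each library was 1 mouse or a pool, so p-values measure the spread between these libraries. The steady-state libraries carry column names of PBS controls and are called here PBS day 1 replicate 2, PBS day 4 replicate 2, PBS day 7 replicate 1 and PBS day 7 replicate 2.

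Total counts per library ran from 15721866 to 52056896. Levels are given as CPM, counts scaled to the normalized library size, and 3 counts, taken as the floor of detection, corresponded to between 0.0527 and 0.194 CPM depending on the library. The sorted population was checked with markers fixed for the purpose. The 7 stromal markers (Epcam, Krt8, Krt5, Pecam1, Cdh5, Pdgfra and Col1a1) summed to 3563 to 27960 CPM at steady state and to 3587 to 19110 CPM after TBI, whereas the 4 pan-leukocyte markers (Ptprc, Coro1a, Laptm5 and Cd53) summed to 128 to 475 CPM in steady-state libraries, 118 to 186 on day 1, 55.7 to 84.5 on day 4 and 90.5 to 1898 on day 7. Leukocyte RNA was therefore measurable in every library. One steady-state library, PBS day 1 replicate 2, had the highest steady-state level of 8 of the 10 genes. It is also the only control named for day 1, so that leaving it out removes the one control of that day. Results are given with and without it where they rest on it.

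The start regions of the 2 receptor genes and of the 2 neighbouring S100 genes are shown. The receptors were the genes that passed the test at day 1, and the levels of S100a8 and S100a9 followed each other over the 13 libraries (Pearson's r of log2(CPM + 0.5) 0.971, and 0.979 within conditions). For the receptors r was 0.937 over all libraries but 0.271 within conditions, so their likeness lay in the difference between conditions. The sequences are RefSeq's (GRCm38.p6), read 5′ to 3′ on the strand of the gene, from 250 bases before the RefSeq start to the last base that neither annotation assigns to the gene. Capitals mark a match to a binding motif of C/EBP factors, TTGCNNAA, or of PU.1, AGGAAGT, searched on both strands (reverse TTNNGCAA and ACTTCCT).
Csf3r, chr4:126024409-126024549, plus strand: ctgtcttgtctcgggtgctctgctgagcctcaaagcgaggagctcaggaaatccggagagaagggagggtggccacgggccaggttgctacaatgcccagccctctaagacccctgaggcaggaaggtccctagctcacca
Cxcr2, chr1:74153744-74153988, plus strand: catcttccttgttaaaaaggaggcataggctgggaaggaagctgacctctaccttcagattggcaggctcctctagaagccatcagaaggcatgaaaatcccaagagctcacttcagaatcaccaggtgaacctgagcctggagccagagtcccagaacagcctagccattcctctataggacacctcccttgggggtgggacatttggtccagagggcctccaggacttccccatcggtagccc
S100a8, chr3:90668821-90668977, plus strand: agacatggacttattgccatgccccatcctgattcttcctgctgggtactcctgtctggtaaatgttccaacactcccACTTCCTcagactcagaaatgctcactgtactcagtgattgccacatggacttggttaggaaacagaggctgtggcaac
S100a9, chr3:90695722-90695971, minus strand: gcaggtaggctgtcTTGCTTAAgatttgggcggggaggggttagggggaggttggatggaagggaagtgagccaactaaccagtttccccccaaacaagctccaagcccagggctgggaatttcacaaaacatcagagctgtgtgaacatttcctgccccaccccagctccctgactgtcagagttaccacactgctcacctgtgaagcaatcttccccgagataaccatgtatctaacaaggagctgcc
Over the full 250 bases before each RefSeq start, all 10 genes had an entry. The C/EBP motif was found for 4 of them (S100a9, Ngp, Ltf and Retnlg) and in 9.56% of 32851 promoters of the same length. The PU.1 motif was found for 3 (S100a8, Elane and Mpo) and in 7.69% of those promoters. Csf3r, Cxcr2 and Camp had neither. A match of letters is a description of the sequence and not evidence of binding.

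At day 1 after TBI, both receptor genes rose, and no other of the 10 genes passed the test. Of the 10, 9 passed the filter on low counts and were tested with edgeR's quasi-likelihood test across 19984 genes with Benjamini-Hochberg adjustment, at an adjusted p of 0.05. Elane was too low. The share of all tested genes that changed between day 1 and steady state was 2.35%, against 2 of these 9. The filter kept genes at or above about 0.227 CPM, on raw library totals, in as many libraries as the smallest group held. Csf3r and Cxcr2 met this only through the day 1 libraries, where they were high. Setting 2 of 9 beside 2.35% is therefore a description and not further evidence of a rise. For all 9, the fitted log2 fold change was above 0, with a median of 1.12 beside −0.10 over all genes tested.

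Csf3r (ENSMUSG00000028859, GRCm38 chromosome 4, 126024550 to 126044440, plus strand) encodes the receptor of granulocyte colony-stimulating factor. The steady-state libraries had 0.285, 0.0750, 0.0645 and 0.0484 CPM, in the order given above, on 13, 3, 3 and 1 counts. The day 1 libraries had 4.84, 4.41 and 5.91 CPM on 171, 95 and 282 counts. Every day 1 library thus lay far above every steady-state library, 3 of which were at or under the floor of 3 counts. This corresponds to a log2 fold change of 5.30 (standard error 1.12, 95% interval 3.11 to 7.50, adjusted p = 0.000707), or 39.5-fold. Without PBS day 1 replicate 2 it was 6.27 (adjusted p = 0.000663), and the gene passed in all 13 alternative analyses that tested it. The column names end in tags that are not explained and were taken as a possible batch. Among tags starting in kk, with 1 library each at steady state and at day 1, Csf3r had 0.0484 CPM at steady state and 4.84 at day 1. Among those starting in neither kk nor k3 it had 0.285 and 0.0645 against 4.41 and 5.91 CPM, and no day 1 library has a tag starting in k3. With the tag as a term in the fit the log2 fold change was 5.49 (adjusted p = 0.00185).

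By day 4 Csf3r had returned to 0.129, 0.176 and 0.167 CPM, and at day 7 it had 0.103, 0.512 and 0.108 CPM. The day 7 values overlapped with steady state apart from replicate 2, which was the highest. Compared with day 1, Csf3r had fallen by day 4 (log2 fold change −4.94, standard error 1.14, adjusted p = 0.00445) and was still lower by day 7 (−4.35, standard error 1.04, adjusted p = 0.00448), and both calls held in all 12 alternatives. Against steady state, it was 0.37 at day 4 (95% interval −1.04 to 1.77, adjusted p = 0.832) and 0.95 at day 7 (−0.42 to 2.32, adjusted p = 0.641).

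Cxcr2 (ENSMUSG00000026180, chromosome 1, 74153989 to 74161246, plus strand) encodes the receptor for the neutrophil chemokines. At steady state it had 5, 2, 2 and 0 counts, or 0.110, 0.05001, 0.0430 and 0 CPM, and at day 1 it had 60, 13 and 79 counts, or 1.70, 0.604 and 1.65 CPM. The 2 groups did not overlap, and replicate 2 of day 1 was the lowest of its group. Cxcr2 rose by a log2 fold change of 4.49 (standard error 1.21, 95% interval 2.11 to 6.86, adjusted p = 0.0162), or 22.4-fold. With the counts of each group added up, 152 against 9, the ratio was 24.7 with an exact 95% interval of 12.7 to 54.9 that covers counting error only. Cxcr2 passed in 9 of 13 alternatives. With 1 library left out, it missed the threshold without PBS day 7 replicate 1 (log2 fold change 4.45, adjusted p = 0.0602), without replicate 1 of day 1 (4.28, adjusted p = 0.0705) and without replicate 3 of day 1 (4.30, adjusted p = 0.0591).

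After day 1 the Cxcr2 counts went back to almost none, with 3, 0 and 2 at day 4 and 0, 0 and 1 at day 7. The single count at day 7 against 152 at day 1 corresponds to a level that was lower by a ratio of 195, with a counting interval of 34.5 to 7764. The adjusted p between day 7 and day 1 was 0.00697, and it stayed under 0.05 in all 12 alternatives. For day 4 against day 1, edgeR gave −4.67 on the log2 scale (standard error 1.37, adjusted p = 0.0476). This call was close to the threshold and was kept in 4 of 12 alternatives. It was lost without replicates 1, 2 or 3 of day 1 (log2 fold change −4.43, −4.98 and −4.41, adjusted p = 0.117, 0.0747 and 0.116) and without replicates 2 or 3 of day 4 (−3.81 and −4.37, adjusted p = 0.228 and 0.287).

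**Figure D1:**
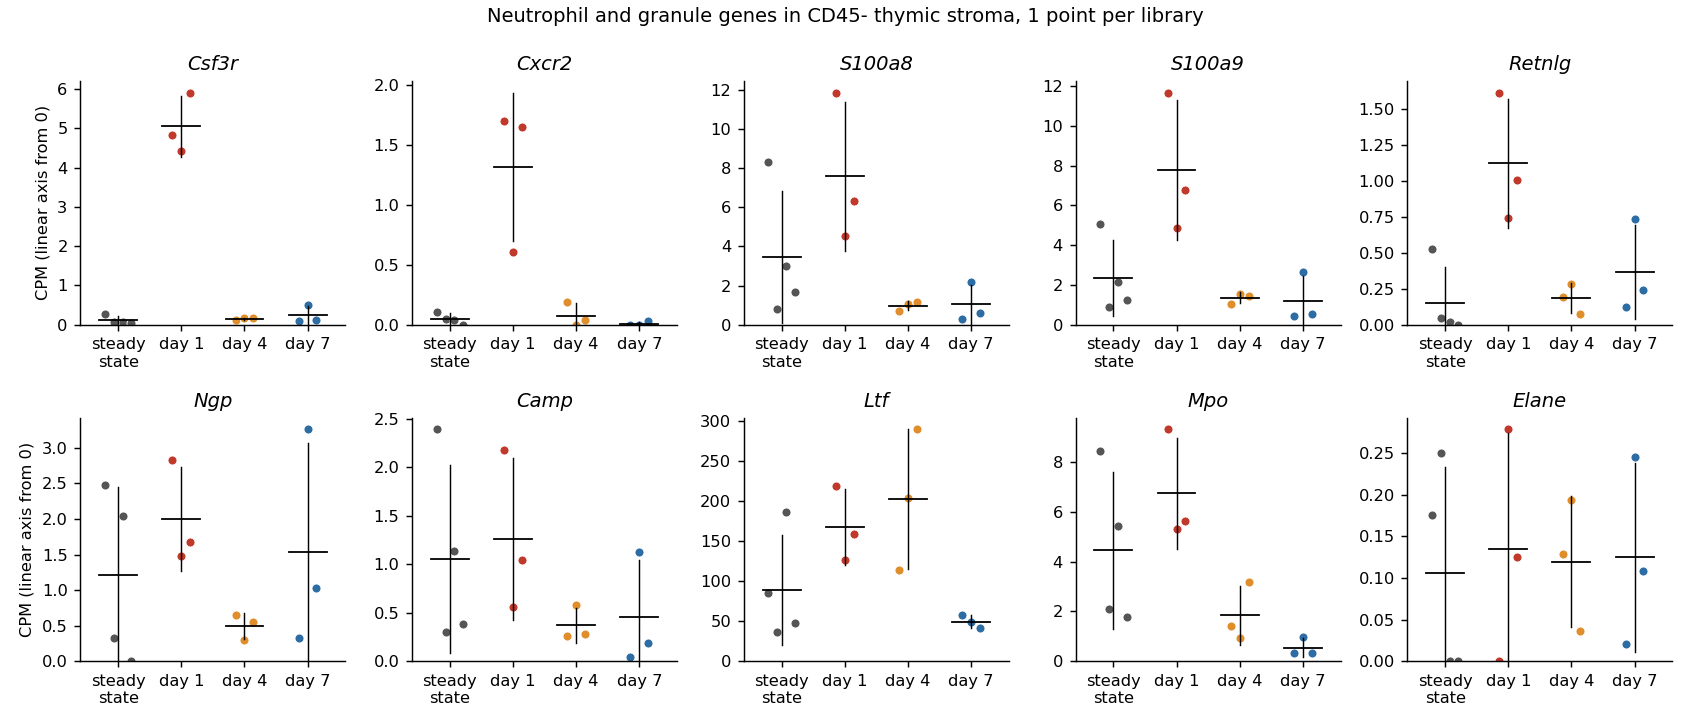
Each panel plots 1 gene on its own linear CPM axis from 0, with 1 point per library, a horizontal bar at the mean and a vertical line for 1 SD (drawn no lower than 0) for steady state (n = 4) and each day after TBI (n = 3). The day 1 points of Csf3r, from 4.41 to 5.91 CPM, stand above all others, whereas those of Ngp, Camp and Mpo overlap with steady state and the mean of Ltf is highest at day 4.

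The genes for the ligands of both receptors were examined from a list of 6. At day 1, 3 of the 6 rose and none fell, with a median log2 fold change of 1.84 beside −0.10 over all genes. Of all tested genes, 1.68% rose and 0.671% fell, and these shares are a description and not a test. Csf3, the ligand of Csf3r, had 0, 1, 4 and 0 counts at steady state and 55, 12 and 26 at day 1, which is 0 to 0.0861 against 0.545 to 1.56 CPM. Csf3 thus rose by 4.69 on the log2 scale (standard error 1.27, adjusted p = 0.0161). Like both receptors, Csf3 passed the filter on low counts only through the day 1 libraries. The call was lost without PBS day 7 replicate 2 (4.46, adjusted p = 0.0509), without replicate 1 of day 1 (4.01, adjusted p = 0.0991) and with only these 2 conditions in the fit (4.61, adjusted p = 0.0514).

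Among the Cxcr2 ligands, Cxcl5 had 3.46 to 20.1 CPM at steady state and 138 to 397 CPM at day 1 (log2 fold change 4.90, standard error 1.07, adjusted p = 0.00113). Ppbp, whose transcript is best known from platelets, had 1.01 to 2.15 and 6.70 to 11.4 CPM (2.61, standard error 0.657, adjusted p = 0.00745). The 4 platelet markers (Pf4, Itga2b, Gp9 and Gp1bb) summed to 5.99 to 15.3 CPM at steady state and 12.3 to 16.7 at day 1, and none of them passed the test. Most of this sum was Itga2b. Pf4 alone had 0.775 to 2.13 CPM at steady state and 2.95 to 6.25 at day 1 (log2 fold change 1.61, adjusted p = 0.113). Itga2b, Gp9 and Gp1bb had log2 fold changes of 0.23, −0.20 and −0.09. Cxcl1, Cxcl2 and Cxcl3 did not pass at day 1, with log2 fold changes of 0.63, 0.65 and 1.06. At day 4, no ligand gene passed the test against steady state, and Cxcl5 (−3.95, adjusted p = 0.0136) and Ppbp (−2.87, adjusted p = 0.0131) were lower than at day 1. The former passed in 10 of 13 alternatives and the latter in 9 of 12. The call for Cxcl5 was lost without replicates 1 or 3 of day 4 (−3.63 and −3.78, adjusted p = 0.0703 and 0.0948), and that for Ppbp without replicate 2 of day 4 (−2.81, adjusted p = 0.0982) and with only these 2 conditions in the fit (−2.74, adjusted p = 0.0599).

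At day 7, all 6 ligand genes were lower than at day 1, with a median log2 fold change of −4.06 beside 0.05 over all genes. Of all tested genes, 4.45% were lower in this comparison and 8.13% passed in either direction. These shares, too, are a description and not a test. Their log2 fold changes were −1.68 for Cxcl1, −3.88 for Cxcl2, −2.86 for Cxcl3, −4.72 for Cxcl5, −4.27 for Ppbp and −4.24 for Csf3, with adjusted p from 0.00108 to 0.0472. Cxcl1 was the least secure, since it passed in 4 of 13 alternatives and in none that left out 1 library (log2 fold change −1.87 to −1.40). Csf3 passed in 8 of 12, and was lost without replicate 1 of day 1 (−3.56, adjusted p = 0.0883) or replicate 3 of day 7 (−4.12, adjusted p = 0.0827). Cxcl2, Cxcl3, Cxcl5 and Ppbp passed in every alternative that tested them. Against steady state no ligand gene passed at day 7.

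**Figure D2:**
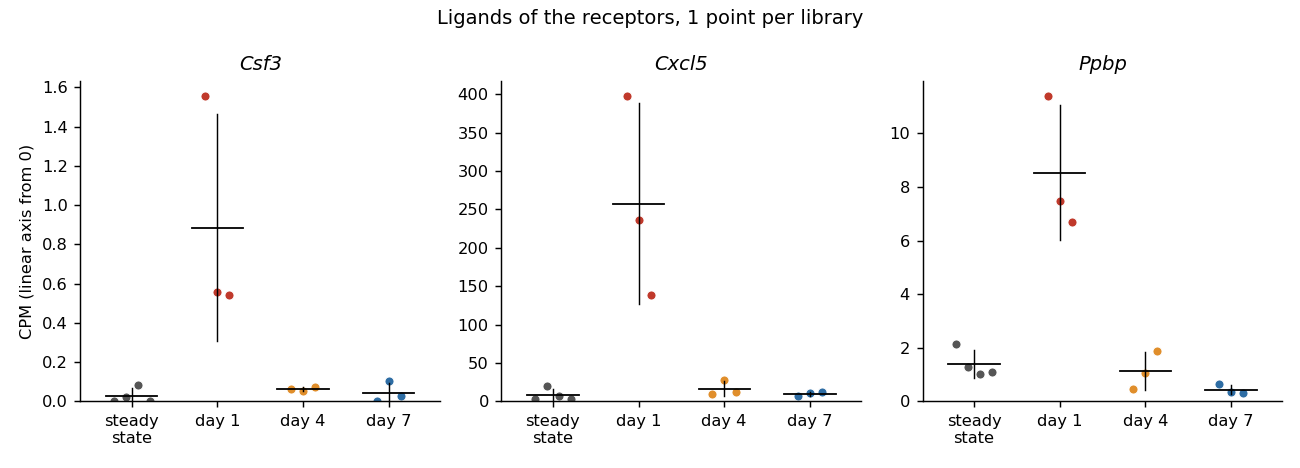
The 3 panels plot Csf3, Cxcl5 and Ppbp on linear CPM axes from 0, with 1 point per library, a bar at the mean and a line for 1 SD (drawn no lower than 0) in the 4 conditions. In each panel the 3 day 1 libraries lie above all 10 others. These are the 3 of the 6 ligand genes that passed the test at day 1. Cxcl1, Cxcl2 and Cxcl3 are not plotted, and their day 1 libraries overlapped with steady state. Of all tested genes, 7.25% had all day 1 libraries above all of steady state.

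S100a8 and S100a9, which neighbour each other on chromosome 3, encode the subunits of calprotectin, a calcium- and zinc-binding complex that fills the neutrophil cytosol and is also made by monocytes and stressed epithelium. Both were present in all libraries. S100a8 (ENSMUSG00000056054, 90668978 to 90670035, plus strand) had 8.33, 0.825, 2.99 and 1.69 CPM at steady state and 11.8, 4.55 and 6.33 CPM at day 1. S100a9 (ENSMUSG00000056071, 90692632 to 90695721, minus strand) had 5.09, 0.875, 2.17 and 1.26 CPM at steady state and 11.7, 4.88 and 6.77 CPM at day 1. For both genes, PBS day 1 replicate 2 lay within the range of day 1, and the other 3 steady-state libraries lay below it.

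The day 1 difference did not pass the test for S100a8 (log2 fold change 1.12, 95% interval −0.39 to 2.64, adjusted p = 0.459) or S100a9 (1.72, 0.24 to 3.20, adjusted p = 0.213). Without PBS day 1 replicate 2 the log2 fold changes were 2.10 and 2.48, with adjusted p = 0.137 and 0.0729. The intervals thus allow rises of several fold as well as, for S100a8, none.

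At day 4, S100a8 was at 0.710, 1.07 and 1.15 CPM and S100a9 at 1.03, 1.56 and 1.46 CPM, in both cases below all libraries of day 1 and within the range of steady state or just under it. At day 7, S100a8 had 0.308, 2.19 and 0.597 CPM and S100a9 had 0.451, 2.64 and 0.515 CPM, and replicate 2 stood above the other two. Of these 2 genes, S100a9 was lower at day 7 than at day 1 (log2 fold change −2.68, standard error 0.924, adjusted p = 0.0475), and S100a8 was just short of the threshold (−2.87, standard error 1.02, adjusted p = 0.0545).

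The call for S100a9 was kept in 4 of 13 alternatives. It was lost without replicates 1, 2 or 3 of day 1 (log2 fold change −2.27, −2.93 and −2.78, adjusted p = 0.132, 0.0666 and 0.0876) and without replicates 1 or 3 of day 7 (−2.29 and −2.42, adjusted p = 0.106 and 0.132). S100a8 passed in 4 of 13, among them the one without replicate 2 of day 7 (−4.10, adjusted p = 0.0391). Between day 4 and day 1, the log2 fold changes were −2.93 for S100a8 (adjusted p = 0.129) and −2.51 for S100a9 (adjusted p = 0.146).

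The proportions among these genes within a library do not depend on how libraries are scaled. For every 100 counts of S100a8, the steady-state libraries held 3.42, 9.09, 2.16 and 2.86 counts of Csf3r. The day 1 libraries held 40.8, 96.9 and 93.4, those of day 4 held 18.2, 16.4 and 14.5, and those of day 7 held 33.3, 23.4 and 18.2. All day 1 libraries lay above all others, and those of days 4 and 7 lay above steady state, although the day 4 and day 7 values rest on 2 to 25 Csf3r counts per library. S100a9 counts per 100 of S100a8 were 61.1, 106, 72.7 and 74.3 before TBI, 98.6, 107 and 107 on day 1, 146, 146 and 127 on day 4, and 147, 121 and 86.4 on day 7. The proportion of the S100 genes to each other therefore varied over a narrow range beside that of the receptor to S100a8. Both genes of a ratio share a library, and no test was made on the ratios.

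**Figure D3:**
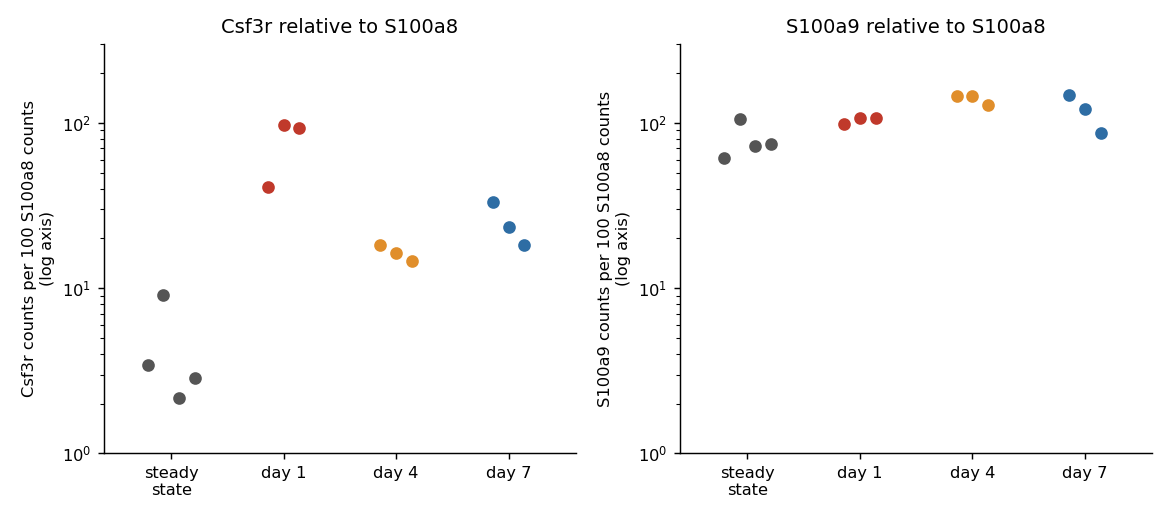
The panels plot, on log axes, the counts of Csf3r (left) and of S100a9 (right) per 100 counts of S100a8 in the same library, with 1 point per library in the 4 conditions. Csf3r runs from 2.16 at steady state to 96.9 at day 1, while S100a9 stays between 61.1 and 147.

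Retnlg (ENSMUSG00000022651, chromosome 16, 48872608 to 48874498, plus strand), a resistin-like secreted protein of mature mouse neutrophils, had 24, 2, 1 and 0 counts at steady state and 57, 16 and 48 at day 1. This is 0.526, 0.05001, 0.0215 and 0 CPM against 1.61, 0.743 and 1.01 CPM. All day 1 libraries lay above steady state for Retnlg, Csf3r and Cxcr2, 3 of the 9 tested genes, whereas 7.25% of all tested genes were arranged in this way. Csf3r and Cxcr2 passed the filter only through those day 1 libraries, so setting these shares side by side is a description and not a test. The log2 fold change of Retnlg was 2.78 (standard error 1.12, adjusted p = 0.164). It depended on a single library: without PBS day 1 replicate 2, the one control named for day 1, it was 5.26 and passed (adjusted p = 0.00936). With DESeq2 it also passed (2.91, adjusted p = 0.0466). At day 4 it had 0.194, 0.281 and 0.0740 CPM and at day 7 it had 0.123, 0.737 and 0.244 CPM, where replicate 2 was again the highest. Neither day passed the test against steady state (adjusted p = 0.951 and 0.723) or against day 1 (adjusted p = 0.299 and 0.363).

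None of the 3 secondary granule genes passed the test at day 1. Ngp (ENSMUSG00000032484, chromosome 9, 110419747 to 110423012, plus strand), a cystatin-like protein of neutrophil granules, had 2.48, 0.325, 2.04 and 0 CPM at steady state on 113, 13, 95 and 0 counts. At day 1 it had 2.83, 1.49 and 1.68 CPM, which overlapped with steady state. The log2 fold change at day 1 was 0.69 (95% interval −1.25 to 2.64, adjusted p = 0.757). At day 4 it had 0.645, 0.299 and 0.555 CPM, and at day 7 it had 0.328, 3.26 and 1.03 CPM. Replicate 2 of day 7 was the highest of all 13 libraries for this gene, with 159 counts. This library had the highest level of day 7 for 8 of the 10 genes, and also the most Ptprc, the gene of CD45 (606 CPM, against 21.6 and 224 in replicates 1 and 3), and the most of the 8 thymocyte markers (4266 CPM summed, against 175 and 1822). The part of carried-over leukocytes in its values was not tested.

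Camp (ENSMUSG00000038357, chromosome 9, 109847379 to 109849617, minus strand), the precursor of the antimicrobial cathelicidin peptide, had 2.39, 0.30, 1.14 and 0.387 CPM at steady state and 2.18, 0.557 and 1.05 CPM at day 1. The log2 fold change was 0.25 (95% interval −1.53 to 2.03, adjusted p = 0.916). It had 0.258, 0.580 and 0.278 CPM at day 4 and 0.0410, 1.13 and 0.190 CPM at day 7. Neither Ngp nor Camp passed in any of the 6 comparisons, in any alternative. Their intervals at day 1 reach up to a log2 fold change of 2.64 and 2.03, so with this spread between libraries they allow rises of up to those sizes.

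Ltf (ENSMUSG00000032496, chromosome 9, 111019271 to 111042767, plus strand), which encodes the iron-binding lactoferrin, was by far the most abundant of the 10, with 980 to 15638 counts per library. The steady-state libraries had 85.3, 36.1, 185.9 and 47.5 CPM. Those of day 1 had 218, 126 and 158 CPM, those of day 4 had 114, 203 and 290 CPM, and those of day 7 had 57.6, 49.5 and 41.6 CPM. Unlike the other genes, its mean was highest at day 4 (202 ± 87.8 CPM, SD, n = 3), with day 1 close to it (167 ± 46.9), and steady state (88.7 ± 68.1, n = 4) and day 7 (49.6 ± 7.96) lower. The libraries of day 7 lay below all libraries of days 1 and 4. The log2 fold change of Ltf was −1.76 between day 7 and day 1 (standard error 0.634, adjusted p = 0.0596) and −2.03 between day 7 and day 4 (standard error 0.664, adjusted p = 0.0539), both just short of the threshold. The latter passed in 5 of 13 alternatives, one of them without replicate 1 of day 4 (−2.41, adjusted p = 0.0446). Against steady state it was 0.92, 1.19 and −0.84 at days 1, 4 and 7 (adjusted p = 0.351, 0.338 and 0.538).

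Of the 3 epithelial markers in the stromal list, 2 had their highest mean at day 4, as Ltf did, and 1 did not. The mean of Krt5 was 298 ± 171 CPM before TBI, 532 ± 156 on day 1, 1102 ± 188 on day 4 and 180 ± 72.0 on day 7. Krt8 had 236 to 727 CPM before TBI, 445 to 662 on day 1, 626 to 854 on day 4 and 235 to 357 on day 7. The mean of Epcam, in contrast, was 83.6 ± 59.1 CPM before TBI, 81.1 ± 59.3 on day 1, 49.9 ± 43.2 on day 4 and 26.6 ± 12.2 on day 7. For every 100 counts of Krt5, the libraries held 10.4 to 55.0 counts of Ltf, with overlap between all 4 conditions. The part of epithelial cells in the Ltf values was not tested.

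Of the primary granule genes, Mpo (ENSMUSG00000009350, chromosome 11, 87793581 to 87804413, plus strand) encodes myeloperoxidase, and 15.0% of its exon bases overlap with another annotated gene, Gm11505, where reads are left out by the counting. Mpo had 8.44, 2.10, 5.44 and 1.79 CPM at steady state and 9.30, 5.29 and 5.63 CPM at day 1 (log2 fold change 0.60, 95% interval −0.61 to 1.81, adjusted p = 0.645). It then declined to 1.42, 0.948 and 3.18 CPM at day 4 and to 0.328, 0.983 and 0.325 CPM at day 7. All day 7 libraries lay below all those of steady state and of day 1. From day 1 to day 7 Mpo fell by 3.61 on the log2 scale (standard error 0.981, adjusted p = 0.0114), and this fall passed in all 13 alternatives.

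Against steady state, Mpo at day 7 had a log2 fold change of −3.02 (standard error 0.890, adjusted p = 0.117) and did not pass. Without PBS day 4 replicate 2 it passed (−3.25, adjusted p = 0.0472), as it did with DESeq2 (−3.01, adjusted p = 0.000471) and without the filter on low counts (−2.99, adjusted p = 0.0157). Between day 4 and steady state it was −1.26 (adjusted p = 0.411).

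Mpo was set beside 4 markers of medullary epithelium (Aire, Fezf2, Cd80 and Tnfrsf11a), which were chosen after its values were seen. Their summed level was 24.8 to 204 CPM before TBI, then 41.5 to 77.7 on day 1, 23.4 to 40.3 on day 4 and 12.2 to 18.3 on day 7. The day 7 libraries lay below all others on this sum, as they did for Mpo itself beside steady state and day 1. Singly, this held for Aire and Fezf2, whereas Cd80 and Tnfrsf11a at day 7 overlapped with other libraries. Between day 7 and day 1, Cd80 passed the test (log2 fold change −2.01, adjusted p = 0.0249). Aire, Fezf2 and Tnfrsf11a did not (−2.22, −2.07 and −1.74, adjusted p = 0.127, 0.0982 and 0.166). The 7 mast cell, basophil and eosinophil markers summed to 4.15 to 27.9 CPM before TBI, then to 5.80 to 13.8 on day 1, 3.55 to 6.09 on day 4 and 1.76 to 2.95 on day 7, where Mcpt8 had no count and 1 of them, Prg2, was lower than at day 1 (−2.58, adjusted p = 0.0430). Prg2 passed in none of the alternatives that left out 1 library (−2.83 to −2.18). The part of these cells in the Mpo values was not tested.

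Elane (ENSMUSG00000020125, chromosome 10, 79886247 to 79888215, plus strand), neutrophil elastase, had 0 to 12 counts per library. Steady-state libraries had 0.175, 0.25, 0 and 0 CPM, those of day 1 had 0, 0.279 and 0.126, those of day 4 had 0.129, 0.193 and 0.0370, and those of day 7 had 0.0205, 0.246 and 0.108. It did not pass the filter on low counts, and a difference between conditions was not detectable at this depth. The library of day 1 with the most Mpo (9.30 CPM) had no count of Elane.

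**Figure D4:**
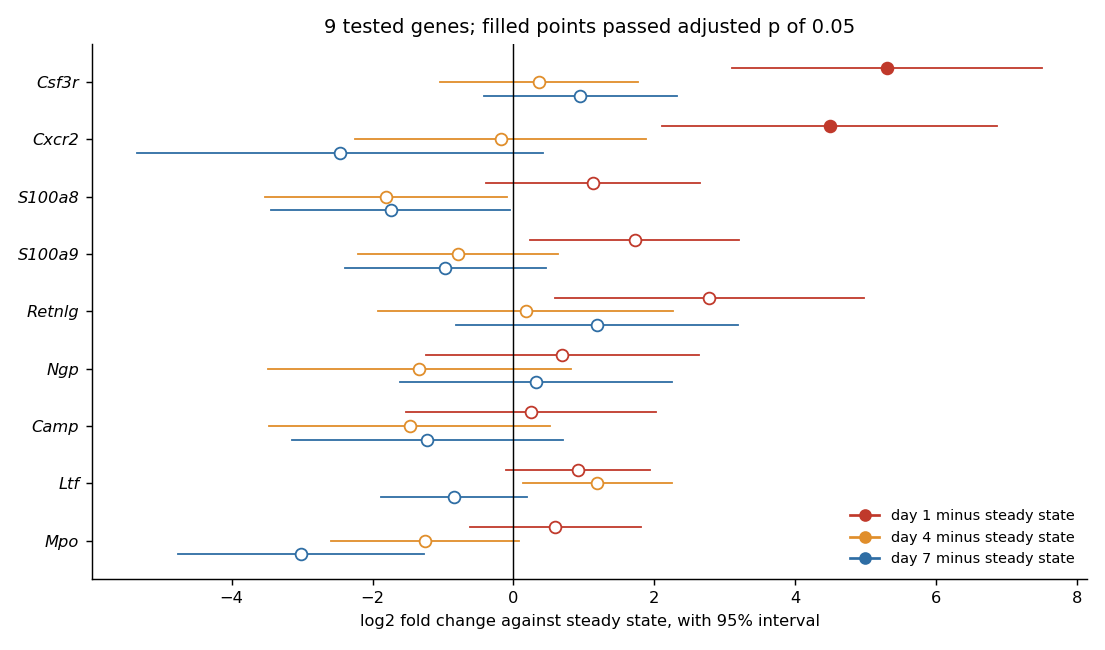
Fitted log2 fold changes of the 9 tested genes against steady state, with 95% intervals, for each day after TBI. Filled points passed an adjusted p of 0.05, which are Csf3r (5.30) and Cxcr2 (4.49) at day 1, and every interval of Ngp and Camp includes 0.

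At day 4, none of the 9 tested genes passed against steady state with edgeR, where 0.29% of all tested genes did. An unadjusted p under 0.05 was found for 2 (S100a8 and Ltf), and DESeq2 called none. Log2 fold changes were above 0 for 3 of the 9, with a median of −0.79 beside −0.13 over all genes. At day 7, none passed against steady state with edgeR, where 0.005% of all tested genes did, that is 1 gene. An unadjusted p under 0.05 was found for S100a8 and Mpo, and DESeq2 called 1, Mpo.

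Between the days after TBI, 2 of the 9 genes were lower at day 4 than at day 1 (Csf3r and Cxcr2). Of all tested genes, 1.07% were lower and 1.43% passed in either direction. At day 7, 4 of the 9 were lower than at day 1 (Csf3r, Cxcr2, S100a9 and Mpo), and the fitted log2 fold change was below 0 for all 9. Of all tested genes, 4.45% were lower and 8.13% passed in either direction. Csf3r and Cxcr2 passed the filter only through the day 1 libraries, so these shares are a description and not a test. Between day 7 and day 4 none of the 9 passed with edgeR, where 3.9% of all tested genes did. There, an unadjusted p under 0.05 was found for 2 (Ltf and Mpo), and DESeq2 called 1, Ltf. All comparisons with day 1 share the same 3 libraries, as all comparisons with steady state share the same 4.

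Per kilobase of exon, which allows levels of different genes to be compared, the mean at steady state was 25.7 ± 19.8 CPM for Ltf (SD, n = 4), 4.99 ± 4.85 for S100a8, 4.50 ± 3.65 for S100a9, 1.39 ± 1.28 for Camp, 1.298 ± 0.916 for Mpo and 0.992 ± 1.01 for Ngp. Retnlg followed with 0.246 ± 0.415, then Elane with 0.108 ± 0.129, Csf3r with 0.0328 ± 0.0310 and Cxcr2 with 0.0166 ± 0.0148. Ltf and S100a8 differed by more than the SD of either, and all other neighbours in this order differed by less than the larger of their SDs. At day 1, Csf3r had 1.400 ± 0.213 CPM per kilobase (n = 3) and thus lay within the SDs of Ngp (1.63 ± 0.594), Camp (1.66 ± 1.10) and Retnlg (1.84 ± 0.733), and Cxcr2 (0.433 ± 0.203) lay above Elane (0.137 ± 0.142). At day 7, Cxcr2 was the lowest of the 10 again, at 0.00297 ± 0.00514.

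Other neutrophil genes were examined from lists grouped by their known roles. Of 16 genes of mature neutrophils, 12 were tested, and 1 rose at day 1 and none fell (median log2 fold change 0.97, beside −0.10 over all genes). The one that rose was Clec4d, a C-type lectin receptor of myeloid cells, with 0, 0, 4 and 1 counts at steady state and 72, 16 and 49 at day 1 (log2 fold change 5.15, adjusted p = 0.0124). This call was lost without replicate 1 of day 1 (4.64, adjusted p = 0.0682). Clec4d, too, passed the filter on low counts only through the day 1 libraries. Ly6g, the surface marker by which mouse neutrophils are usually sorted, had 3.58, 0.400, 0.818 and 0.726 CPM at steady state and 3.68, 1.02 and 1.59 CPM at day 1 (log2 fold change 0.60, adjusted p = 0.693). Without PBS day 1 replicate 2 it was 1.76 (adjusted p = 0.115). This library was again the highest of its group and close to the highest library of day 1. Stfa2l1, a stefin of activated neutrophils, had no count at steady state or at days 4 and 7 and at most 1 at day 1.

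At day 7, 3 of the 12 (Ly6g, Clec4d and Asprv1) were lower than at day 1 and 1 was higher. Of all tested genes, 4.45% were lower and 3.68% were higher. Ly6g had 2, 3 and 1 counts at day 7 and passed in all 12 alternatives (adjusted p = 0.00654). Clec4d passed in 4 of 12 alternatives and in none that left out 1 library (log2 fold change −4.37 to −3.08), while Asprv1 passed in all 13. Asprv1 is also a gene of keratinizing epithelium. At day 7 the 8 thymocyte markers were all higher than at day 1, with a summed level of 175 to 4266 CPM against 96.2 to 119 CPM. At days 4 and 7, none of the 12 passed the test against steady state.

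Among 15 other genes of the later granules and of the NADPH oxidase, 14 were tested and 1, Lcn2, rose at day 1 (median 0.29 beside −0.10). Lcn2 encodes an iron-siderophore carrier protein of the secondary granules that epithelial cells also make. It accounted for 736 to 2063 of the 1426 to 2944 CPM to which the list summed at day 1, and the rise was 69.6-fold (log2 fold change 6.12, adjusted p = 0.000275). At day 7, Lcn2 and Chil3 were lower than at day 1, but Chil3 passed in none of the alternatives that left out 1 library (log2 fold change −3.09 to −2.32). The other primary granule genes (3 of 4 tested, with Prtn3 at a log2 fold change of 0.82 and adjusted p = 0.694) and the granulopoiesis transcription factors (4 of 5 tested) gave no call at day 1. At day 7, Prss57 of the former and Gfi1 of the latter were higher than at day 1, and Gfi1 is also a transcription factor of thymocytes. Neither passed without replicate 2 of day 7 (Prss57 2.44, adjusted p = 0.111, and Gfi1 3.28, adjusted p = 0.124), without replicate 3 of day 7 (3.59, adjusted p = 0.0538, and 4.19, adjusted p = 0.0752) or without any 1 library of day 1 (3.33 to 3.89 and 4.01 to 4.58).

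Markers of other cells were measured beside the rise of the receptors at day 1. Of 9 monocyte and macrophage markers, 1 rose, Ly6c2 (log2 fold change 1.79, adjusted p = 0.0318). With 1 library left out it passed only when that was PBS day 4 replicate 2 (1.55 to 2.03 over the 7 libraries). The list summed to 57.2 to 81.8 CPM at steady state and 65.9 to 87.9 at day 1, and most of this sum was Csf1r and Mertk. Single markers moved both ways, with a median log2 fold change of −0.43. Ly6c2 and Cd68 (1.24, adjusted p = 0.110) were above 0, and the others were below 0, down to −1.45 for Ccr2 (adjusted p = 0.328). The erythroid markers Slc4a1 (log2 fold change −4.23, adjusted p = 0.00547) and Epb42 (−2.97, adjusted p = 0.00694) fell. None of the 8 thymocyte, 4 pan-leukocyte, 5 B cell, 6 tested mast cell and 4 platelet markers passed at day 1. Their median log2 fold changes, in this order, were −1.92, −1.16, 0.01, −0.16 and 0.07. The thymocyte markers summed to 210 to 691 CPM at steady state and 96.2 to 119 at day 1. Ptprc, which encodes CD45, was at 71.7 CPM on average at steady state and 13.5 at day 1 (log2 fold change −2.41, adjusted p = 0.157). The part of these cells, and of neutrophils themselves, in the values of Csf3r and Cxcr2 was not tested.

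Which genes followed the same pattern over the 13 libraries was described by Pearson's r of log2(CPM + 0.5) over 14575 genes with a mean of at least 1 CPM. Closest to S100a8 were Cyp11a1 (r = 0.955), Chil3 (0.955), Lrrc23 (0.949), Rln3 (0.947) and Ccr1 (0.944), of which Chil3 and Ccr1 are known from myeloid cells. Closest to S100a9 were Deup1 (0.953), Cyp4f18 (0.946) and Srgn (0.942), followed by 2210407C18Rik (0.937) and 9530082P21Rik (0.932). Closest to Ngp were Nfya (0.885), Traf2 (0.883), Tnfrsf8 (0.876), Fgr (0.875) and Itgam (0.867), where Fgr and Itgam are genes of myeloid cells. These values describe 13 libraries that share their conditions and depth, and no test was made.

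For the genes whose levels differed most in pattern, the same was done after their values were seen. Csf3r was closest to Ifi206 (r = 0.974), Il19 (0.969), Isg15 (0.967), Daxx (0.967) and Tcirg1 (0.965), of which Ifi206 and Isg15 are interferon-induced. Within conditions, r with Csf3r was 0.714 for Ifi206 and for Tcirg1 but −0.113 for Il19, 0.0227 for Isg15 and 0.398 for Daxx, so the likeness of these last genes lay mainly in the difference between conditions. Ltf was closest to Gabrp (0.974), Aqp4 (0.967), Pglyrp4 (0.966), Tprg (0.957) and Sftpd (0.951), among which Aqp4, Gabrp and Sftpd are known from epithelia. Among the genes closest to Mpo were Tac2 (0.960), Gdf3 (0.95), Prss29 (0.945) and Apoa4 (0.944). None of the 10 genes was among the genes compared with it, and the lists of Csf3r, Ltf and Mpo have no gene in common.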

How the data were processed

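Bulk RNA-seq counts of CD45- thymic cells were analysed (4 libraries at steady state and 3 for each time after TBI). Per the paper's methods and the submitters' processing notes, the authors trimmed reads with Trimmomatic 0.38, aligned them with STAR 2.7.0e to GRCm38.p5 and counted them per gene with featureCounts 1.6.3. The deposited values are raw counts; reads of several genes or places are left out and strand is not used. Of 53379 identifiers, 53274 had a symbol in GENCODE M21.

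The 10 genes and all gene lists were chosen with earlier results of these data known. Steady-state columns lack the labels' replicate numbers and were used as a group. The unexplained tags of the columns were taken as a possible batch. A part of the tag is carried by day 7 libraries only and cannot be told apart from day 7.

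All 13 libraries entered 1 fit in edgeR 4.0.16 (R 4.3.3): TMM, filterByExpr() (minimum count 10, total 15), quasi-likelihood F-test, Benjamini-Hochberg over 19984 genes. Standard errors came from the normal quantile of p. The steps were tested on simulated data. Alternatives were RLE, other filters, tag family as a term, a fit of 2 conditions at a time, blocks for the replicate numbers of the labels and of the column names, each library left out, and DESeq2 1.42.0. Depth is given with the results; counting intervals cover counting error only. All 10 genes are named; other lists by their calls against steady state, or their first genes. Ly6g, Asprv1, Chil3, Prss57, Gfi1, Prg2, Mcpt8, Stfa2l1 and the ligands at day 7 were named after their values were seen. A few genes of these lists are not reported here.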

Additional observations from a re-analysis of the deposited data

Results flagged for a closer look

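The 4 steady-state libraries were examined for 16 genes by the gap between an extreme library and its nearest neighbour, divided by the whole range (Dixon's ratio, at its 95% critical value). This marked 4 of the 16, where chance alone marks about 1 in 20. In PBS day 1 replicate 2, Csf3r had 0.285 CPM against 0.0484 to 0.0750 in the others (ratio 0.8877), Retnlg had 0.526 CPM against 0 to 0.05001 (ratio 0.905), and Ly6g had 3.58 CPM against 0.400 to 0.818 (ratio 0.8685). In PBS day 4 replicate 2, Lcn2 had 37.7 CPM against 8.04 to 13.1 (ratio 0.8294, barely past the critical value). The first 3 come from the same library, which was also the highest at steady state for 8 of the 10 genes described above.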

How the results depend on the processing

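Of the 10 genes, the number that passed at day 1 against steady state was 2, and 0 with at least 10 counts in every library, where 4 of the genes were tested and neither receptor was among them; it was 1 to 3 with 1 library left out. At day 7 against steady state it was 0, and 1 (Mpo) without the filter and with DESeq2, and 0 to 1 with 1 library left out. Between day 4 and day 1 it was 2, and 0 with the strict filter, 1 (Csf3r) with tag family as a term, 4 with DESeq2, and 1 to 2 with 1 library left out. Between day 7 and day 1 it was 4, and 1 (Mpo) with the strict filter, 6 with DESeq2, and 3 to 5 with 1 library left out. Between day 7 and day 4 it was 0, and 1 (Ltf) with RLE, without the filter, with only the 2 conditions and with DESeq2, and 0 to 1 with 1 library left out. Over all genes, the number that passed ran over the alternatives from 209 to 1354 (469 as reported) at day 1, 19 to 620 (58) at day 4 and 0 to 1093 (1) at day 7 against steady state, and from 56 to 935 (285) for day 4 against day 1, 472 to 2912 (1625) for day 7 against day 1 and 0 to 1908 (779) for day 7 against day 4. The causes were not tested.

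With the labels' replicate number as a block, among the 9 libraries after TBI, 1 gene (Csf3r) passed between day 4 and day 1, and Cxcl5 (adjusted p = 0.0544) and Ppbp (adjusted p = 0.157) did not. Same-numbered libraries did not deviate together (mean correlation −0.179, −0.666 to 0.196, against 0.0792 for other pairs), so the numbers were not taken to pair them. Steady-state columns carry numbers other than those of their labels. A block by the column numbers over all 13 libraries, added after seeing the data, left 1 of the 10 genes called at day 1 against steady state (Csf3r, adjusted p = 0.00309), and Cxcr2 (3.78, adjusted p = 0.164), Csf3 (adjusted p = 0.0674), Ppbp (0.0571), Clec4d (0.0523) and Ly6c2 (0.0817) missed the threshold.

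Some differences that did not pass changed sign. With tag family as a term, Cxcr2 at day 4 against steady state was 0.60 and Ngp at day 7 against day 1 was 0.056. At day 7 against day 4, S100a8 was −0.014 with RLE, −0.0083 with DESeq2 and −0.13 with the replicate block, and Camp was −0.047 with the block. With 1 library left out, the log2 fold changes against steady state ran from −0.39 to 1.09 for Camp at day 1, −1.06 to 0.019 for S100a9, −1.37 to 0.68 for Cxcr2 and −0.44 to 2.69 for Retnlg at day 4, and −0.18 to 1.84 for Csf3r and −0.82 to 0.87 for Ngp at day 7. Ltf at day 4 against day 1 ran from −0.077 to 0.60 and Ngp at day 7 against day 1 from −1.60 to 0.10. At day 7 against day 4, they ran from −1.22 to 0.50 for S100a8, −1.57 to 0.21 for S100a9, −0.67 to 0.95 for Csf3r, −0.081 to 1.63 for Retnlg and −1.84 to 0.79 for Camp. Group means of all 10 genes moved by less than 1 SD with raw library totals.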
